A study of Mus musculus with 6 samples.

Results

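The genes described here are *Tmem14c*, *Tmem87a*, *Gm14085* and *BC049730*, which were almost silent in 1 genotype and readily counted in the other, together with *Plgrkt* and *Sat1*, which were higher by a smaller factor, and the paralogues *Tmem14a* and *Tmem87b*. All 8 were found among the 23366 genes counted. They were chosen from the genotype difference in these same libraries, so their differences between genotypes are given as a description and without a test. The small intestine epithelium was profiled at embryonic day 13.5 in 3 *Shh-cre-egfp:Tcf7l1 lox/lox* libraries, called mutant, and in 3 wild type libraries. In the mutants, Cre is made from the *Shh* locus and removes a floxed exon of *Tcf7l1*, and the wild type label names neither allele. Each library came from 500 sorted cells that carried the epithelial surface protein EpCAM. How many embryos went into a library, and their genetic background, are not given in the sources used here, so p-values measure the spread between these libraries, which may be technical.

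TMEM14C is a small protein of the inner mitochondrial membrane that brings the haem precursor protoporphyrinogen IX into the matrix, and TMEM14A is its close relative. TMEM87A and TMEM87B are membrane proteins of the Golgi that share a fold with the WNT carrier WLS. *Gm14085*, also called *Slc28a2b*, is a relative of *Slc28a2*, which encodes a sodium-coupled nucleoside transporter. *BC049730* encodes a protein of the Ly6/uPAR family of small, disulphide-rich surface proteins. PLGRKT is a plasminogen receptor of the plasma membrane. SAT1 is the acetyltransferase that carries out the rate-limiting step in the breakdown of the polyamines spermidine and spermine.

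*Gm14085* and *Slc28a2* lay side by side on the plus strand of chromosome 2, 23.8 kb apart in mm9, and their longest coding transcripts were 96% identical. Only uniquely mapping reads, 84 bases long, had been counted, so what separates the pair is the bases that differ within such a length. Of 539 windows of 84 bases that lie in a coding exon of both genes, 4.27% had no mismatch and the median was 2 mismatches. The windows with the most mismatches, 17, are shown with the differing bases in capitals, from exon 5 of *Gm14085* (chr2:122320010-122320093) and exon 6 of *Slc28a2* (chr2:122273563-122273646).
Gm14085: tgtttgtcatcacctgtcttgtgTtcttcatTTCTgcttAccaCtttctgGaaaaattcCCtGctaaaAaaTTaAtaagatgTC
Slc28a2: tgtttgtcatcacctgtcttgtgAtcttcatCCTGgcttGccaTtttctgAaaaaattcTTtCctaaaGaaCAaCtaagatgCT
A read from this window would carry the base differences that tell the genes apart. The next window, from exon 4 of *Gm14085* (chr2:122319071-122319154), read the same in exon 5 of *Slc28a2* (chr2:122272622-122272705), and a read from it would have been counted for neither gene.
Gm14085 and Slc28a2: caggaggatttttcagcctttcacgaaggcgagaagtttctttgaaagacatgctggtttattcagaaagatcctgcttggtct

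Promoter sequences of RefSeq, on GRCm38.p6 and from 250 bases before to 50 bases after the start site, were found for 7 of the 8 genes, all but *BC049730*. They are shown for the 3 genes with the largest measured folds. TCF factors bind sites such as CTTTGAA and CTTTGAT. These letters, CTTTGTA and the further form CTTTGTT were searched on both strands and are in capitals where found. The promoter of *Tmem14c* (chr13:41016000-41016299, plus strand) and that of *Tmem87a* (chr2:120404067-120404366, minus strand) held no such match. The promoter of *Gm14085* (chr2:122484691-122484990, plus strand) held 1 match, starting at position -208 relative to the start site.
Tmem14c: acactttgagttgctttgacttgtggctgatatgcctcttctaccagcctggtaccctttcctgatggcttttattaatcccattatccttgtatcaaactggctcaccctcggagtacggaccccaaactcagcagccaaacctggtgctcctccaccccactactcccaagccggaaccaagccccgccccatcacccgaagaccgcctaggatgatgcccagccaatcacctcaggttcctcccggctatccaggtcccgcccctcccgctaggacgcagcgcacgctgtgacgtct
Tmem87a: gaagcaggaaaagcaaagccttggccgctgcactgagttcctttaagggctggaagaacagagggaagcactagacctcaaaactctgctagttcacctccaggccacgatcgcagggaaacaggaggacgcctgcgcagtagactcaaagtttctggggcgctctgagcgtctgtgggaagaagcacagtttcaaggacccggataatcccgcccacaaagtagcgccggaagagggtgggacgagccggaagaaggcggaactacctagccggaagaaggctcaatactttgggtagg
Gm14085: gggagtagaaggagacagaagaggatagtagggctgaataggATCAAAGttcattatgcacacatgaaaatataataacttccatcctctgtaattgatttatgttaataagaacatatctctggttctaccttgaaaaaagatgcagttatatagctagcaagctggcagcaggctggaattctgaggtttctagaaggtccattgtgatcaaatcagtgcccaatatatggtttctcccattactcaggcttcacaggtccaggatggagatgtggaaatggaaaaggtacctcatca
Over all 32851 promoters of this length, 16.9% held at least 1 match. Among the 7 promoters found, *Gm14085* was the one with a match. The promoter of its relative *Slc28a2*, which is not one of the 8 genes, also held 1 match, starting at position -126. The promoter of *Gm14085* held 0 CpG pairs, and those of the other 6 genes held between 9 and 24, where the median over all promoters was 7. The absence of these letters from a window says nothing about binding elsewhere.

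*Tmem14c* (chromosome 13, 41111619 to 41117944 of mm9, plus strand) had raw counts of 44, 67 and 49 in wild type 1, 2 and 3, and of 1856, 1932 and 1606 in mutant 1, 2 and 3. Scaled with edgeR's TMM factors, these are normalized counts of 41.3, 62.5 and 46.6 in wild type and of 1922, 2057 and 1777 in mutant libraries. The lowest mutant library thus lay far above the highest wild type library. The means were 50.1 ± 11.0 and 1919 ± 140.5 (SD, n = 3 each), a ratio of 38.3 and a log2 fold change (log2FC), fitted with edgeR, of 5.25 (SE 0.15). The wild type libraries held 2.61% of the mutant level, and the exact 95% counting interval was 2.22% to 3.06%, which covers counting error only, since the reads carry no molecular identifiers. Of the members, *Tmem14c* had the largest fold that could be measured.

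*Tmem14a* (chromosome 1, 21208656 to 21220248, plus strand), the paralogue of *Tmem14c*, had normalized counts of 198.8, 266.6 and 222.4 in wild type and of 187.4, 270.5 and 222.3 in mutant libraries. Its groups overlapped, and their means were 229 ± 34.4 and 227 ± 41.7 (log2FC -0.02, SE 0.20). There was no difference in the opposite direction to match that of *Tmem14c*, whose mean was 1868 normalized counts higher in the mutants while that of *Tmem14a* moved by -2.53. The summed counts of the pair were 240.1, 329 and 269 in wild type and 2109, 2328 and 1999 in mutant libraries. *Tmem14c* made up 17.9% of this sum in wild type and 89.4% in mutant libraries.

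*Tmem87a* (chromosome 2, 120181045 to 120229852, minus strand) had raw counts of 49, 78 and 52 in wild type 1, 2 and 3 and of 1086, 1150 and 951 in mutant 1, 2 and 3. Its mutant libraries were all well above its wild type libraries. The normalized means were 56.0 ± 14.6 and 1134 ± 86.7, a ratio of 20.2 and a log2FC of 4.33 (SE 0.18). The wild type level was 4.94% of the mutant level, with a counting interval from 4.23% to 5.75%. Exons of *Ganc*, which encodes an alpha-glucosidase and lies on the opposite strand, shared 212 bases or 2.81% of the exon bases of *Tmem87a*. Strand use in the counting is not stated, so reads from these bases cannot be assigned. *Ganc* itself had means of 87.8 ± 9.21 and 107 ± 14.2 (log2FC 0.29, SE 0.26), and was not called (edgeR adjusted p = 0.44, quasi-likelihood test, Benjamini-Hochberg method over every gene tested).

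*Tmem87b* (chromosome 2, 128643854 to 128679997, plus strand) had normalized counts of 708, 961 and 747 in wild type and of 867, 758 and 832 in mutant libraries. Its groups overlapped, with means of 805 ± 136 and 819 ± 55.4 (log2FC 0.02, SE 0.13). In wild type libraries nearly all counts of the pair were thus those of *Tmem87b*, and *Tmem87a* made up 6.50% of the sum. In mutant libraries *Tmem87a* made up 58.1%, because its own mean was 1078 normalized counts higher while that of *Tmem87b* differed by 13.5. Again the paralogue showed no difference in the opposite direction.

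*Gm14085* (chromosome 2, 122310677 to 122353776) had raw counts of 7, 1 and 10 in wild type 1, 2 and 3 and of 120, 104 and 89 in mutant 1, 2 and 3. Wild type 2 thus held a single read, and all mutant libraries were above all wild type libraries. The normalized means were 5.67 ± 4.36 and 111 ± 12.9 (log2FC 4.27, SE 0.52), and the wild type level was 5.06% of the mutant level, with a counting interval from 2.96% to 8.13%. Its near-identical neighbour *Slc28a2* was counted far more often, at 1414, 1408 and 1339 normalized counts in wild type and 1515, 1400 and 1494 in mutant libraries. *Slc28a2* did not pass the test (log2FC 0.08, SE 0.09, edgeR adjusted p = 0.52). Its mean was 82.9 normalized counts higher in the mutants and that of *Gm14085* 105.5 higher, so the sum of both was 1393 ± 38.6 and 1581 ± 64.8, respectively for wild type and mutant. Because the pair shares exact stretches of up to 295 bases, the split of reads between them is uncertain.

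*BC049730* (chromosome 7, 25494278 to 25499552, plus strand) had 0 counts in every wild type library and 93, 100 and 80 in mutant 1, 2 and 3. With a floor of 3 counts over the wild type group, its mutant level was at least 103-fold higher, and at least 68.6-fold to 70.0-fold higher when 1 of the wild type libraries was left out. A stretch with 2 annotated genes, *Gm4763*, also called *Lypd11*, and *Cd177*, matched 50.9% of its transcript at 89.5% identity (chromosome 7, 25507515 to 25529276). Both of these genes had 0 counts in all 6 libraries. *BC049730* was thus detected in the mutant group alone, at a low level of 97.1 ± 9.02 normalized counts.

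**Figure D1:**
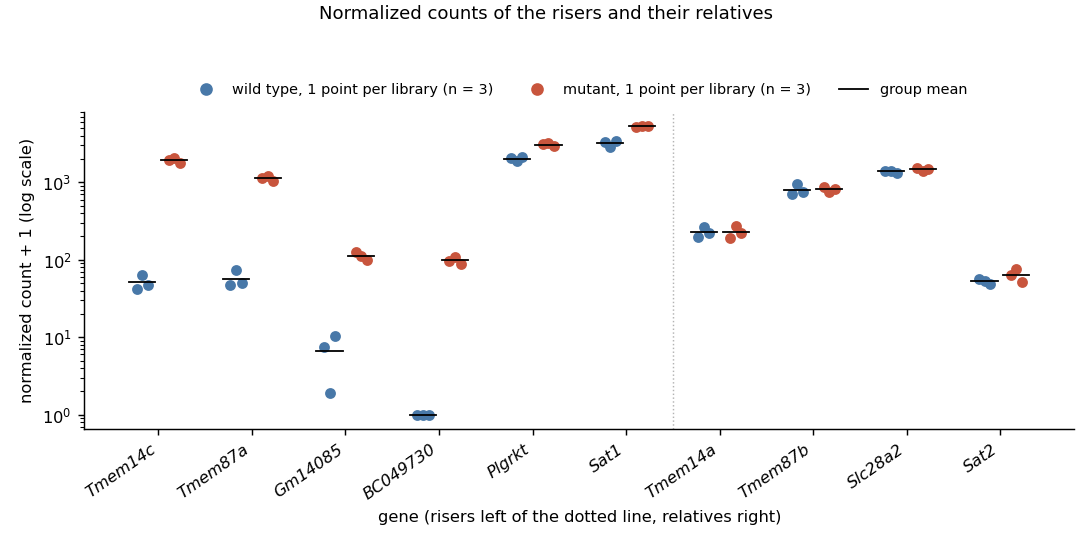
Normalized counts plus 1, on a log axis, of the 6 genes higher in the mutants and of 4 relatives, with a point for each of 3 wild type and 3 mutant libraries and a line at each group mean. The mutant points of *Tmem14c*, *Tmem87a*, *Gm14085* and *BC049730* stand apart from the wild type points, while those of *Tmem14a*, *Tmem87b*, *Slc28a2* and *Sat2* overlap.

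**Figure D2:**
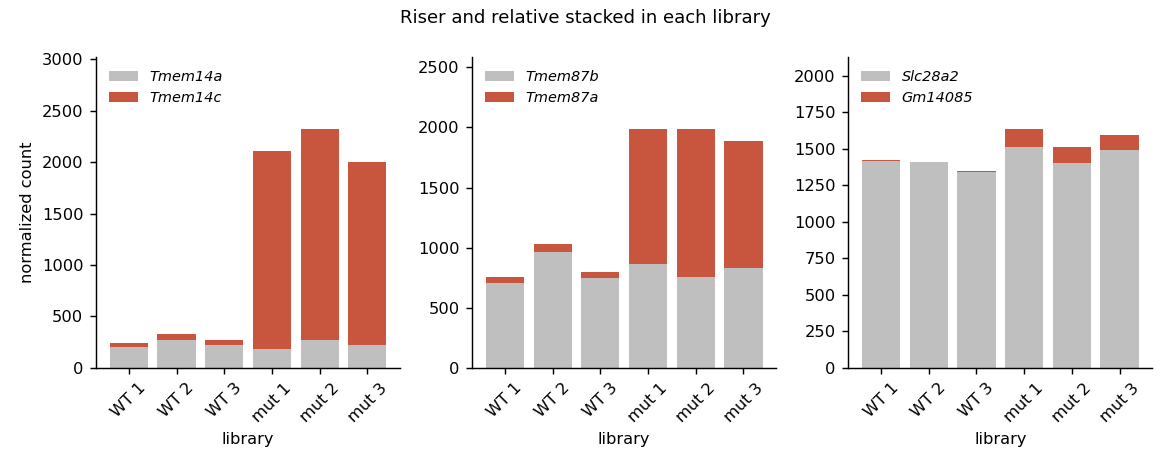
Normalized counts of *Tmem14c*, *Tmem87a* and *Gm14085* stacked on those of their relatives in each library (WT, wild type, and mut, mutant, 1 to 3). The grey part, the relative, keeps about the same height in all 6 libraries, and the sum of *Tmem14c* and *Tmem14a* goes from at most 329 in wild type to at least 1999 in mutant libraries.

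*Plgrkt* (named 5033414D02Rik in the annotation, chromosome 19, 29423089 to 29441880, minus strand) did not have the near on-off pattern. Its normalized counts were 2056, 1905 and 2112 in wild type and 3094, 3177 and 2955 in mutant libraries. The groups did not overlap, and the ratio of the means, 2024 ± 107 and 3075 ± 112, was 1.52 (log2FC 0.60, SE 0.08). No copy of its transcript elsewhere in the genome passed the search. *Sat1* (chromosome X, 151647675 to 151650992, minus strand) had normalized counts of 3328, 2846 and 3375 in wild type and 5248, 5285 and 5329 in mutant libraries. Its means of 3183 ± 293 and 5287 ± 40.5 differed by a ratio of 1.66 (log2FC 0.73, SE 0.08). The related *Sat2* had 51.7 ± 3.93 and 62.9 ± 11.8 normalized counts (log2FC 0.28, SE 0.35, edgeR adjusted p = 0.58), and its groups overlapped.

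*Sat1* lies on the X chromosome, and the groups also differed in their sex-linked transcripts. No wild type library had a count of *Xist* (0 in each), which had between 237 and 451.5 normalized counts in mutant libraries. The summed normalized counts of *Ddx3y*, *Eif2s3y*, *Kdm5d* and *Uty*, on the Y chromosome, lay between 4707 and 4964 in wild type libraries and were 0 in all mutant libraries. Genotype and the sex of the embryos can therefore not be told apart for *Sat1*. Of 426 other tested genes on the X chromosome, 12 were called higher and 25 lower (median log2FC -0.02). A call here needs a log2FC of 0.5 or more in size, a mean of 50 or more normalized counts and an adjusted p under 0.01. The 2.82% called higher on the X chromosome were close to the 2.78% called higher among all 12501 genes tested.

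The same criteria called 348 genes higher and 729 lower, 5.83% of those tested. The latter count was 405 when wild type 1 was left out, 406 for wild type 2 and 463 for mutant 2. In all 6 of the genes higher in the mutants every mutant library lay above every wild type library. This held for 20.8% of all genes tested, and since the members were chosen from this contrast nothing is read from it. *BC049730*, with a mean of 48.5 normalized counts, was just under the minimum of 50. Among 10565 tested genes past that minimum, *Tmem14c*, *Tmem87a* and *Gm14085* ranked 3, 4 and 5 by fitted rise. Only 7 of them had a log2FC of at least 3, and 28 had one as large in the other direction. The other 4 that were higher were *Xist*, the non-classical MHC class I genes *H2-T10* and *H2-T3*, and *Lrat*, which encodes the enzyme that esterifies retinol. *H2-T10* had means of 1.25 ± 2.17 in wild type and 556 ± 34.1 in mutant libraries, *H2-T3* had 186 ± 36.4 and 1536 ± 30.5, and *Lrat* had 16.0 ± 3.98 and 222.5 ± 64.2. Both H2 genes belong to a family of close copies, so their counts are uncertain. Of the largest falls, *Ddx3y*, *Eif2s3y*, *Uty* and *Kdm5d* are Y-linked, and the next was *Car2*, a carbonic anhydrase gene, with 376 ± 41.9 and 2.19 ± 2.94 (log2FC -7.38, SE 0.43).

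**Figure D3:**
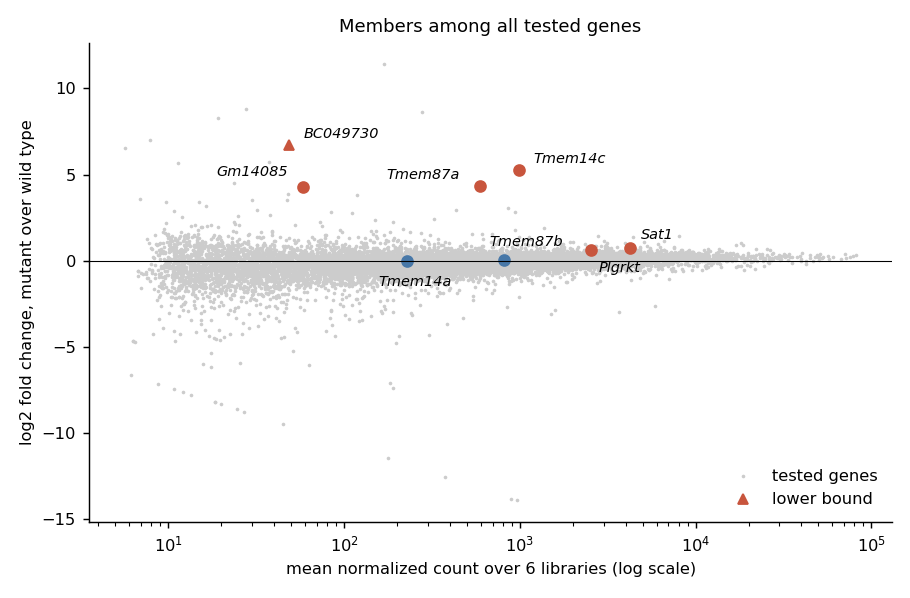
Fitted log2FC of mutant over wild type against the mean normalized count over 6 libraries, on a log axis, with all tested genes in grey and the 8 members in colour. *Tmem14c* (5.25), *Tmem87a* (4.33) and *Gm14085* (4.27) lie above nearly all genes. *BC049730* is drawn at its fold over a floor of 3 counts, marked as lower bound. *Plgrkt* and *Sat1* lie near the edge of the cloud, and *Tmem14a* and *Tmem87b* lie on the zero line.

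Levels can be compared between genes only per length, and were taken per kb of the longest coding transcript. Counts were made per gene, and the exons of all its transcripts together can span more bases. These were 3799 against 1020 for *Plgrkt*, 7534 against 2897 for *Tmem87a* and 2774 against 1162 for *Sat1*, but 945 in both for *Tmem14c*. The order, that of *Tmem87a* and *Tmem14a* included, thus depends on the length chosen, and no other length was tried. In wild type libraries the order of the 8 genes was *Sat1* (2739 ± 252 normalized counts per kb), *Plgrkt* (1984 ± 105), *Tmem14a* (182 ± 27.3), *Tmem87b* (168 ± 28.4), *Tmem14c* (53.0 ± 11.7), *Tmem87a* (19.3 ± 5.02), *Gm14085* (1.51 ± 1.17) and *BC049730* (0). The neighbours *Tmem14a* and *Tmem87b* in this order did not differ beyond their spread. In mutant libraries *Sat1* (4550 ± 34.9) and *Plgrkt* (3015 ± 110.0) were again at the top. *Tmem14c* came next with 2030 ± 149 and *Tmem87a* with 391 ± 29.9, both above *Tmem14a* (179.8 ± 33.1) and *Tmem87b* (170.4 ± 11.5), which overlapped. *BC049730* (82.99 ± 7.71) and *Gm14085* (29.7 ± 3.45) were the lowest. By this length the near on-off genes were not of 1 level. *Tmem14c* reached a level of the same order as *Plgrkt*, and *Gm14085* stayed far under *Slc28a2* (376 ± 15.6).

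Within the mutant group the libraries varied little. The coefficient of variation was 7.32% for *Tmem14c*, 7.65% for *Tmem87a*, 9.29% for *BC049730* and 11.6% for *Gm14085*, and it was 0.766% for *Sat1*. In wild type libraries, where fewer reads were counted, it was 22.0% for *Tmem14c*, 26.0% for *Tmem87a* and 76.9% for *Gm14085*. Wild type 2 had the highest count of *Tmem14c*, *Tmem87a*, *Tmem14a* and *Tmem87b* in its group and the lowest of *Gm14085*, *Plgrkt* and *Sat1*. The genes whose pattern over the 6 libraries was most like that of *Tmem14c*, by Pearson's correlation of log2 CPM, were *Tmem87a* (r = 0.9996), *Naa50* (0.9993), *Pklr* (0.9986), *Acat1* (0.9984) and *Edem1* (0.9982). *Naa50* encodes an N-terminal acetyltransferase, *Pklr* a pyruvate kinase, *Acat1* a mitochondrial thiolase and *Edem1* a protein of endoplasmic reticulum degradation. These points share the split into 2 groups, and 52 of the tested genes had an r over 0.99, so that the order among them is a description only.

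The transcripts of the 8 genes differed in how far a read of 84 bases can place them. Every window of this length in *Tmem87a*, *Tmem87b* and *Plgrkt* had no exact copy outside the gene, in the genome or in annotated coding transcripts. The share was 96.5% for *Tmem14c*, 93.7% for *BC049730*, 90.3% for *Tmem14a*, 79.5% for *Sat1* and 73.8% for *Gm14085*. A BLAST search for copies over at least 30% of the transcript at 80% identity or more found a single one of *Tmem14c*, the annotated pseudogene *Gm4246* on chromosome 17 (36331123 to 36332414, minus strand), which covered 95.1% of the transcript at 89.5% identity. *Sat1* had a copy on chromosome 5 (30120702 to 30121754), covering 90.4% at 97.5% identity, and another on chromosome 17 (16457119 to 16458066), covering 71.9% at 94.4%. *Tmem14a* had partial copies on either side of itself on chromosome 1 (21184350 to 21184870 and 21273542 to 21274219), at 93.9% and 89.5% identity. *BC049730* had, beside the stretch given above, a copy with no annotated gene (chromosome 7, 25473763 to 25480236) over 60.2% of the transcript. The paralogues were far less alike at the level of bases, since *Tmem87a* matched *Tmem87b* over 25.9% of its transcript at 68.7% identity with a longest exact run of 14 bases, and no match passed the search between *Tmem14c* and *Tmem14a*.

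**Figure D4:**
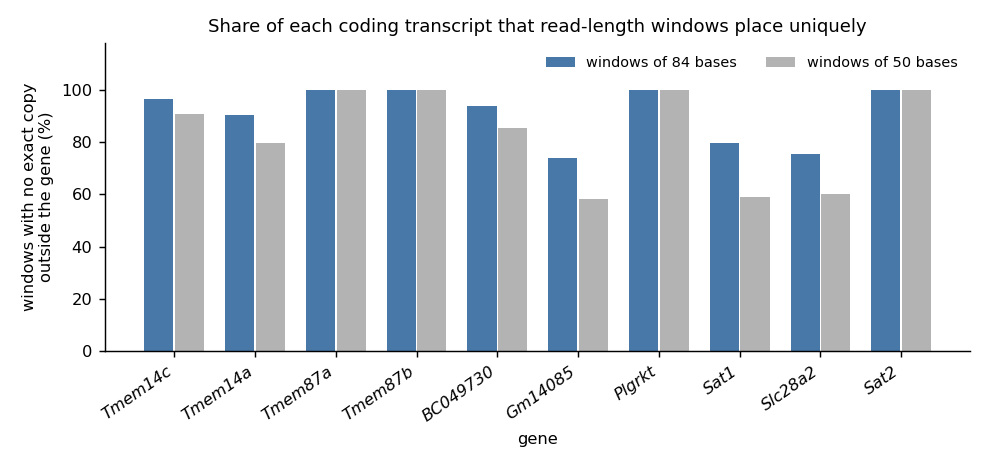
Percent of windows of 84 bases (blue) and 50 bases (grey) in the longest coding transcript of each gene that have no exact copy outside that gene. *Gm14085* (73.8%) and *Slc28a2* (75.3%) have the lowest values at 84 bases, and *Tmem87a*, *Tmem87b*, *Plgrkt* and *Sat2* reach 100%.

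Position was not used to choose the genes. *Tmem87a* and *Gm14085* lay 2.08 Mb apart on chromosome 2 and *Tmem87b* a further 6.29 Mb along, and the other members were on chromosomes 1, 7, 13, 19 and X. Within 1 Mb of a member, 131 other genes were tested, of which 6 were called higher and 9 lower. These 11.5% were near the 8.62% called either way among all genes tested, and the median log2FC of the neighbours was -0.14, against -0.04 for all genes. These counts rest in part on single libraries: 3 were higher and 3 lower when wild type 1 was left out, 3 and 4 for wild type 2, and 5 were lower for mutant 2.

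The tested genes nearest to the near on-off members did not share their large difference. *Pak1ip1*, the nearest gene before *Tmem14c* at 3.23 kb, had a wild type mean of 2843 and a mutant mean of 3796 (log2FC 0.42, edgeR adjusted p = 0.00089), which is under the fold of a call. *Mak*, 2.54 kb after *Tmem14c*, had 22.2 and 19.7 (log2FC -0.17, edgeR adjusted p = 0.86). Of the 6 tested genes around *Tmem14c*, 0 were called by edgeR and 1 by DESeq2, and 3 had an unadjusted p under 0.05. *Vps39*, 2.17 kb from *Tmem87a*, had 354 and 228 (log2FC -0.63, edgeR adjusted p = 0.014) and was not called. Around *Tmem87a*, *Ckmt1*, which encodes mitochondrial creatine kinase, rose from 1268 ± 114 to 2744 ± 178.5 (log2FC 1.11, edgeR adjusted p = 4.4e-07), and the mitotic spindle gene *Nusap1* rose from 3865 ± 566 to 5615 ± 159 (0.54). *Rpap1* and *Lcmt2* fell there, by 0.96 and 0.58 on the log2 scale.

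Around *Gm14085*, *Gatm*, which encodes the first enzyme of creatine synthesis, rose from 291 ± 19.8 to 494 ± 95.8 normalized counts (log2FC 0.76, edgeR adjusted p = 0.0033). *B2m*, the light chain of MHC class I, rose from 1638 ± 100.5 to 2589 ± 75.7 (0.66, edgeR adjusted p = 3.4e-05). *Sqrdl*, which encodes an enzyme of sulphide oxidation, fell from 647 ± 51.8 to 308 ± 34.1 (-1.07), and *Frmd5* fell from 198 ± 16.2 to 105 ± 26.9 (-0.91). Around *BC049730*, *Plaur*, the urokinase receptor and a member of the same protein family, rose from 763 ± 63.6 to 1258 ± 97.1 (0.72, edgeR adjusted p = 0.00021), and *Ceacam1* rose from 149 ± 14.3 to 266 ± 33.4 (0.83). *Arhgef1*, *Zfp574* and *Bckdha* fell there, by 0.76, 0.76 and 0.66 on the log2 scale. *Kcnn4*, also within 1 Mb of *BC049730*, had the largest difference there (log2FC -3.46) but was not called. *Sirpa* was the 1 gene called near *Tmem87b* (-0.87), and *Gldc*, of the glycine cleavage system, the 1 called near *Plgrkt* (-1.15).

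**Figure D5:**
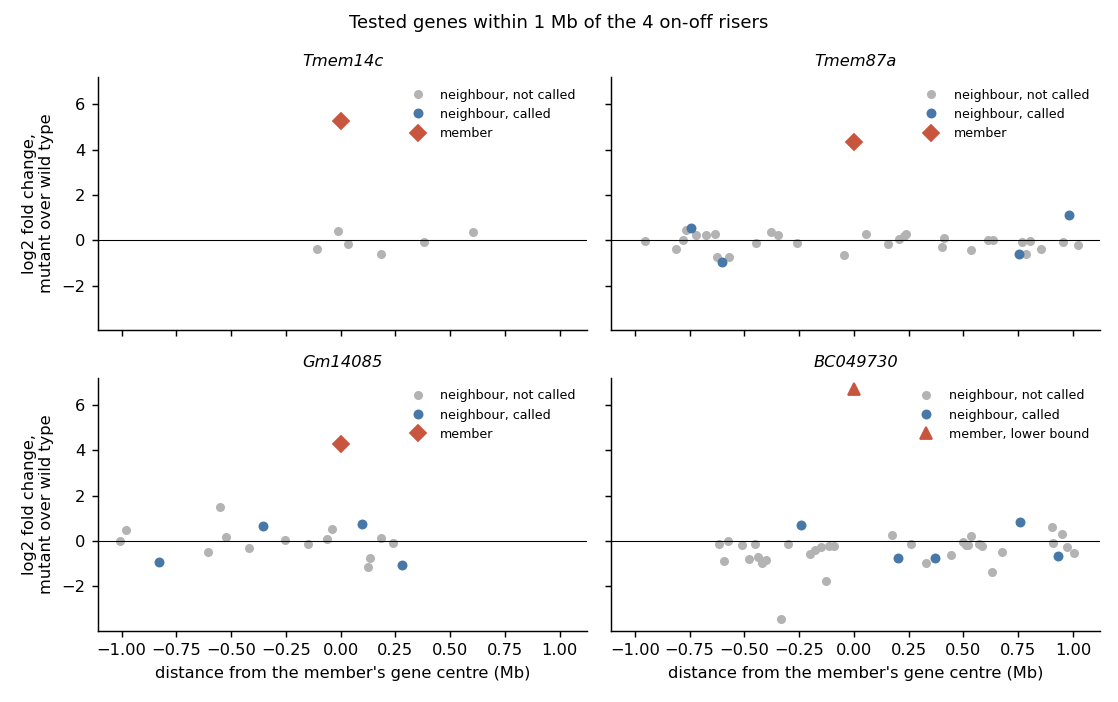
Log2 fold change of mutant over wild type of tested genes within 1 Mb of *Tmem14c*, *Tmem87a*, *Gm14085* and *BC049730*, against the distance from the centre of that gene in Mb. Called neighbours (blue) lie on both sides of zero, and the member at distance 0 lies above all of them. *BC049730* is drawn at its fold over a floor of 3 counts, marked as lower bound.

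The other genes of the pathways were taken from lists written without the members. Of 21 tested genes of haem synthesis and of porphyrin or iron import into mitochondria, 2 were called higher and 0 lower, with a median log2FC of 0.14. By DESeq2 the counts were the same, and 11 had an unadjusted p under 0.05, 3 of them lower. Among all 12501 genes tested, 5033 had such a p, and 2.78% were called higher and 5.83% lower, which is the background for each list. *Alad*, the enzyme that joins aminolevulinic acid into porphobilinogen, rose from 4082 ± 212 to 9115 ± 174 normalized counts (log2FC 1.16, SE 0.07, edgeR adjusted p = 7.9e-09). *Hmox1*, which breaks haem down, rose from 131 ± 27.8 to 248 ± 51.4 (0.92, SE 0.22, edgeR adjusted p = 0.0066). Red blood cells make much haem, and their markers were low: the summed normalized counts of 13 erythroid genes lay between 38.5 and 62.5 in wild type and between 11.7 and 39.4 in mutant libraries. *Hba-a1*, *Hba-a2*, *Hbb-b1*, *Hbb-b2*, *Hbb-bh1* and *Gata1* were at 0 in all 6. Only uniquely mapping reads were counted, and whether reads could be placed in the *Hba* and *Hbb* genes was not checked. Of the 13 erythroid genes, 1 passed the filter and was tested. It was lower in the mutants with an unadjusted p under 0.05, and was not called by edgeR or DESeq2.

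Of 16 tested genes of the GOLD-domain family of *Tmem87a* and of Golgi cargo transport, *Wls* and the *Tmed* genes among them, 0 were called by edgeR or DESeq2, and 3 had an unadjusted p under 0.05, with a median log2FC of 0.11. In polyamine metabolism, the pathway of *Sat1*, 2 of 21 tested genes were called higher and 1 lower, against 2.78% and 5.83% of all genes. DESeq2 called 3 higher and 1 lower, and 10 had an unadjusted p under 0.05. *Agmat*, whose product makes putrescine from agmatine, rose from 199 ± 62.7 to 482 ± 59.2 (log2FC 1.27, SE 0.21, edgeR adjusted p = 0.00038), and *Slc3a2*, a subunit of amino acid transporters, from 4995 ± 417 to 7757 ± 172 (0.64, SE 0.07). *Atp13a2*, a lysosomal polyamine exporter, fell from 261.5 ± 72.8 to 109 ± 9.14 (-1.26, SE 0.23).

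In the plasminogen system, to which *Plgrkt* belongs, 3 of 9 tested genes were called higher and 2 lower, against 2.78% and 5.83% of all genes. DESeq2 gave the same counts, and 6 had an unadjusted p under 0.05. The activator gene *Plat* rose from 340.2 ± 10.8 to 547.5 ± 70.2 (log2FC 0.69, SE 0.15, edgeR adjusted p = 0.0027), and *Plaur* and *S100a10* were also called higher. The inhibitor genes *Serpinf2* and *Serpine2* fell, by 0.93 (SE 0.13) and 0.73 (SE 0.12) on the log2 scale. Of 6 tested nucleoside transporter genes, *Slc29a1* rose from 1809 ± 113 to 3248 ± 235 (0.84, SE 0.08) and *Slc29a4* fell from 223 ± 26.2 to 84.01 ± 15.6 (-1.41, SE 0.23). Of 9 tested genes on the Ly6/uPAR list, which does not hold *Plaur* (counted above with the plasminogen system), 0 were called higher by edgeR or DESeq2, 5 had an unadjusted p under 0.05, and *Cd59a*, a complement inhibitor, fell from 401 ± 13.0 to 229 ± 13.8 (-0.80, SE 0.16).

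The total counts lay between 18216537 and 20397278, and the samples matched the label of epithelium. The summed normalized counts of 10 epithelial markers lay between 151816 and 160792 in wild type and between 144804 and 148512 in mutant libraries. All 10 were tested, and *Cdh1*, *Krt18* and *Cdx2* were called lower. An unadjusted p under 0.05 was found for 8 of them, 2 higher and 6 lower, and the 2 ranges of sums did not overlap. The sums of 10 mesenchyme genes lay between 1328 and 1604 in wild type and between 1044 and 1478 in mutant libraries. In the same order, those of 7 leukocyte genes lay between 87.2 and 120.3 and between 67.5 and 144. Those of 6 neural crest genes lay between 191 and 220 and between 180.2 and 378. Of these 3 lists, 4 mesenchyme, 2 leukocyte and 4 neural crest genes passed the filter and were tested. Of them, 0 were called by edgeR or DESeq2, while 3, 0 and 1 had an unadjusted p under 0.05. Of 6 endothelial genes, *Cdh5*, *Kdr*, *Tek* and *Emcn* were at 0 in all libraries. The part of other cells in the members' differences was not tested. *Tcf7l1* itself had 438 ± 64.1 normalized counts in wild type libraries and 49.1 ± 21.1 in mutant ones, and *Shh* had 481 ± 65.8 and 198 ± 22.6. Among the libraries there is none with Cre and intact *Tcf7l1*, so the Cre allele and the loss of *Tcf7l1* cannot be told apart. In bulk samples, fewer cells that express a gene and less RNA per cell cannot be told apart.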

How the data were processed

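RNA was measured in 6 libraries of sorted epithelium, 3 mutant and 3 wild type. The authors mapped reads of 84 bases with STAR 2.5.2b to mm9, assigned unique reads to a UCSC gene model with featureCounts 1.5.1, and deposited raw counts for each library. The strand setting is not given in the sources used here. They tested with DESeq2 1.18.1.

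Here, 12501 of 23366 genes passed filterByExpr and were fitted on genotype with edgeR 4.0.16 in R 4.3.3 (TMM, quasi-likelihood test, Benjamini-Hochberg adjustment over all tested genes). The log2FC and adjusted p thresholds of a call followed the study. Its minimum RPKM of 50 was replaced by a mean of 50 normalized counts. This is a different measure, not divided by gene length, so the 2 cuts are not alike. The test was also tried on counts simulated from the means of these libraries, with a single dispersion shared by all genes, which the real genes need not have. Positions and transcripts came from an annotation of NCBIM37 (mm9), which placed 97.7% of tested genes. Copies were searched with BLAST+ 2.17.0, and figures drawn with Python 3.11.15 and matplotlib 3.10.9.

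Genes were named by rule: the members, *Slc28a2*, *Sat2*, copies found by BLAST, up to 4 called genes of a list, called genes within 1 Mb, up to 5 rises and 5 falls of at least 3 on the log2 scale, and the 5 genes most like *Tmem14c*. Nearest neighbours, overlapping *Ganc* and the genes near the *Tmem14c* copy were added after their values were seen. Members and lists were chosen with earlier results of these data known. Alternatives were DESeq2 1.42.0, RLE, library size alone, other filters, thresholds and windows, the replicate number as a block, and omission of single libraries. Library pairs of a group differed by more than sampling noise, with a chi-square per gene from 6.30 to 17.9, and each counted as a replicate.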

Additional observations from a re-analysis of the deposited data

How the results depend on the processing

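The log2FCs of *Tmem14c*, *Tmem87a* and *Gm14085* lay between 5.13 and 5.45, 4.21 and 4.57, and 3.77 and 4.86 over 13 alternatives, and moved by less than 1 SD between replicates in each. *Tmem14a* lay between -0.16 and 0.11 and *Tmem87b* between -0.08 and 0.17, so neither kept a sign. *Plgrkt* (0.50) and *Sat1* (0.63) moved by more than 1 SD with library size as the only scaling and with the ratio of summed CPM, and by less in the other 11. Library size as the only scaling shifts the median of all genes by -0.11 on the log2 scale and leaves 17.3% of calls higher, against 32.3%. With it, 200 genes were called higher, 5 pathway genes higher and 8 lower, and 3 neighbours higher, against 348, 8, 5 and 6. Where a call needed a log2FC of 1 or more in size, 85 genes were called higher and 284 lower. Within 3 Mb, 10 neighbours were higher and 16 lower. With each library left out in turn, genes called higher numbered 260 to 516 and lower 405 to 867, pathway genes 5 to 9 and 5 to 5, and neighbours 3 to 6 and 3 to 11. Omitting wild type 1 gave 405 lower genes, 5 higher pathway genes, and 3 higher and 3 lower neighbours. Omitting wild type 2 gave 406 lower genes, and 3 higher and 4 lower neighbours, and omitting mutant 2 gave 463 and 5 lower. The fold of *BC049730* over a floor of 3 counts fell to 68.85, 68.63 and 70.0 on omitting wild type 1, 2 or 3. All its wild type counts were 0 and the floor stayed the same, so this drop was fixed beforehand and says nothing about single libraries. The replicate block changed no count by over 1.5 times (339 higher and 691 lower), and correlations of same-numbered deviations, from -0.0449 to 0.00971, gave no sign of pairing. With windows of 50 bases, unique shares fell to 90.7% for *Tmem14c*, 79.5% for *Tmem14a*, 85.3% for *BC049730*, 58.0% for *Gm14085* and 59.0% for *Sat1*. With 18 wild type reads of *Gm14085* and 0 of *BC049730*, depth limits both folds.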

Other observations

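The pseudogene copy of *Tmem14c* on chromosome 17 lies in the T region of the MHC, 3.89 kb from *H2-T3* and 72.7 kb from *H2-T10* in mm9. This region was looked at after those values were seen. Within 1 Mb of the copy, 49 genes were tested, of which 5 were called higher and 7 lower, and 4 had a log2 fold change (log2FC) of at least 3 and 1 of -3 or less. Over all tested genes, 22 or 0.176% had a log2FC of at least 3, and 82 had one of -3 or less. Besides *H2-T10* and *H2-T3*, the 4 are *Gm8801* and *Gm11127*.

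*Gm8801* had 0 counts in each wild type library, against 50.7, 52.2 and 63.1 normalized counts in mutant 1, 2 and 3. *Gm11127* had 0.938, 0 and 0 in wild type and 26.9, 19.2 and 21.0 in mutant libraries. *H2-T10* had 3.75, 0 and 0 in wild type and 521, 589 and 559 in mutant libraries. All are close together, since *Gm8801* ends 242 kb before the copy, and in each of the 3 the mutant libraries were all above the wild type libraries. *A930015D03Rik*, 156 kb before the copy, had means of 27.6 ± 9.82 in wild type and 193 ± 26.4 in mutant libraries (log2FC 2.80, SE 0.30, edgeR adjusted p = 8.0e-06). The genes called higher were *H2-Q10*, *A930015D03Rik*, *H2-T10*, *H2-T3* and *Trim15*, and those called lower were *Dpcr1*, *Gtf2h4*, *Ddr1*, *Ppp1r10*, *Gnl1*, *Trim26* and *Znrd1as*. The MHC genes among them belong to families of close copies, so their counts are uncertain.

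The copies of *Sat1*, *Tmem14a*, *BC049730* and *Gm14085* had, members aside, 0 tested genes within 1 Mb with a log2FC of at least 3, and each copy of *BC049730* had 1 of -3 or less, *Kcnn4*. Whether the embryos of the groups differed in strain is not given in the sources used here, and genotype, sex and genetic background cannot be told apart with these libraries. The part of any of them in the differences of the members was not tested.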
